A study of Mus musculus with 7 samples.

Results

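PTBP1 binds pyrimidine-rich stretches of pre-mRNA and mostly represses the exons near them. Repression shuts some exons out of nonneuronal tissues, and in other genes a skipped or included exon shifts the reading frame, so that the transcript is degraded by nonsense-mediated decay and the exon choice also sets the gene's mRNA level. *Dlg4*, *Gabbr1*, *Flna*, *Tpm1*, *Actn1* and *Src* have well-known exons regulated by PTBP1, in some of these genes coupled to decay. The rows of the count table that carry these 6 symbols, out of 48440 rows in all, are described here by their abundance. Counts per gene do not show which exons were used, and splicing was not analysed here.

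Bulk RNA-seq was made from E16 mouse retina in 7 stranded mRNA libraries of pooled retinas. The 1 wildtype library (WT) has the genotype Chx10Cre, the 3 Het libraries Chx10-Cre;Ptbp1lox/WT and the 3 KO libraries Chx10-Cre;Ptbp1lox/lox. All 7 libraries therefore carry Cre recombinase under the *Chx10* promoter, which is active in retinal progenitors and not in the vessels, microglia or tissue around the retina, and the floxed segment covers the promoter and first exon of *Ptbp1*. The sample labels name TRIzol for the RNA extraction, whereas the methods name a column kit. Total counts were 148690857 in WT, 171117305, 120593979 and 152970301 in Het1 to Het3, and 133765170, 131005766 and 129073579 in KO1 to KO3. Levels are in CPM, a count divided by the TMM-adjusted total of its library, and the SD is over 3 libraries. As a single library, WT gives levels without an error. It is part of the filter and the scaling but is compared with no group by a test.

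*Ptbp1*, the deleted gene and itself a target of its own protein, was at 381 CPM in WT, at 210, 219 and 234 CPM in Het1 to Het3, and at 27.9, 6.04 and 46.9 CPM in KO1 to KO3. The 3 genotypes did not overlap, and the residual level differed among the KO libraries, with KO2 lowest and KO3 highest. The fold change of KO against Het was -3.04 on the log2 scale (SE 0.64, edgeR adjusted p = 0.0316). The 11 retina and progenitor markers summed to 3236 CPM in WT, to 3066, 3158 and 3188 CPM in Het1 to Het3 and to 3039, 3049 and 3039 CPM in KO1 to KO3, so that all KO sums lay just below the Het sums. Het1 stood apart from the other libraries: the 10 skeletal muscle markers summed to 301.5 CPM in Het1 and to 8.33 to 11.2 CPM in the other 6 libraries, the 10 fibroblast and mesenchyme markers to 471 CPM against 27.4 to 70.8, and the 8 pigmented cell markers to 524 CPM against 20.5 to 60.5. The most abundant genes of these lists were *Myh3*, *Col1a2* and *Pmel*.

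The quasi-likelihood test of edgeR compared KO with Het over 20019 genes and called 7.22% of them, 4.01% as higher and 3.21% as lower in KO. A called gene had a Benjamini-Hochberg adjusted p below 0.05 and a change of more than 20% (0.26 on the log2 scale). Of the 1445 called genes 802 were higher and 643 lower in KO, and leaving out Het2, Het3 or KO2 reduced the number to 386, 496 or 612. The balance of directions turned with the library left out. Without Het2, Het3, KO2 or KO3, 167, 246, 282 or 792 genes were higher and 219, 250, 330 or 882 lower in KO. Without Het1 or KO1, 689 or 672 were higher and 539 or 554 lower. Of the 11 retina and progenitor markers 1 was called, *Atoh7*, named after its values were seen, as lower in KO (log2 fold change -0.81). All 6 classic targets passed the expression filter, and 1 of them, *Flna*, was called. The median log2 fold change was -0.06 over the 6 genes and -0.0047 over all genes tested, with 2 of the 6 positive and 4 negative. Het and KO values were fully separate for 4 of the 6, *Flna*, *Tpm1*, *Actn1* and *Src*, as for 36.3% of all genes tested.

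*Flna* encodes filamin A, a large dimer that crosslinks actin filaments into networks and ties them to integrins at the membrane. It lies on the minus strand of chrX:74223461-74249820 (GENCODE M21, GRCm38), with 15 annotated transcripts, 2 of them marked for nonsense-mediated decay. WT held 404 CPM, Het1, Het2 and Het3 held 309, 307 and 349 CPM, and KO1, KO2 and KO3 held 98.7, 88.5 and 134 CPM. WT was the highest of the 7 libraries, every Het library lay between WT and the KO libraries, and no KO library reached the lowest Het library. Among the KO libraries KO2 was lowest and KO3 highest, the same order as for *Ptbp1*. The endothelial sum and the pericyte and smooth muscle sum given below had this order in KO only without their most abundant genes. That choice was made after seeing the data. With these genes counted, the endothelial list summed to 586, 489 and 505 CPM in KO1 to KO3. The pericyte and smooth muscle list then summed to 86.2, 89.4 and 108 CPM. For *Flna* the Het mean was 322 ± 24.1 CPM and the KO mean 107 ± 23.8 CPM (SD, n = 3 each). KO thus held 33.3% of the Het level, and Het on average held 79.6% of WT. The log2 fold change of KO against Het was -1.59 (SE 0.15, 95% interval -1.95 to -1.22, edgeR adjusted p = 0.00497, lower in 3 of 3 KO libraries).

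*Flnc*, the filamin of striated muscle and a paralog of *Flna*, was lower in KO as well. It was at 14.8 CPM in WT, at 27.1, 15.1 and 15.6 CPM in Het1 to Het3 and at 7.05, 8.53 and 7.32 CPM in KO1 to KO3. Its highest value was in Het1, the library with the muscle transcripts, while Het2 and Het3 were close to WT (log2 fold change -1.34, SE 0.24, edgeR adjusted p = 0.0200). Without Het1 *Flnc* was still called, with a log2 fold change of -1.01 (edgeR adjusted p = 0.00724). The call was lost without KO1 or KO2, at log2 fold changes of -1.28 and -1.43 (edgeR adjusted p = 0.0530 and 0.0621). *Flna* was called under each of the 12 other fits run, with log2 fold changes from -1.78 to -1.47.

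Filamin A is also made by cells that Cre does not reach, and in bulk RNA fewer cells of a type and less RNA per cell cannot be told apart. Of the 10 endothelial markers 7 had negative fold changes, the median log2 fold change over all 10 was -1.43, and 1, *Kdr*, the most abundant, was called as higher in KO, beside 4.01% of all genes tested. Without *Kdr* the list summed to 37.7 CPM in WT, to 39.8, 28.7 and 52.0 CPM in Het1 to Het3 and to 24.0, 19.99 and 36.7 CPM in KO1 to KO3. All 10 pericyte and smooth muscle markers had negative fold changes, with a median log2 fold change of -1.12, and 5 of the 10 were highest in Het1. Of the 10, 2 were called as lower, *Notch3*, the most abundant, and *Pdgfrb*, named after its values were seen (log2 fold changes -0.30 and -0.41), beside 3.21% of all genes tested. Without *Notch3* the list summed to 44.7 CPM in WT, to 92.6, 36.1 and 56.8 CPM in Het1 to Het3 and to 23.7, 23.2 and 42.1 CPM in KO1 to KO3. With these genes counted, the endothelial list summed to 394 to 416 CPM in Het and 489 to 586 CPM in KO. The pericyte and smooth muscle list then summed to 115 to 170.1 CPM in Het and 86.2 to 108 CPM in KO. *Kdr* alone averaged 368 CPM in Het and 499 CPM in KO, so the full endothelial sum mainly follows this gene. *Notch3* averaged 80.1 CPM in Het and 64.9 CPM in KO. Which cells made *Kdr* and *Notch3* was not tested. None of the 20 markers was at 0 in all libraries. Of the 10 microglia markers 2 were called as higher, and the list summed to 71.9 to 94.7 CPM in the Het libraries and to 100.4 to 131 CPM in the KO libraries. The part of the cells behind these marker lists in the *Flna* result was not tested.

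**Figure D1:**
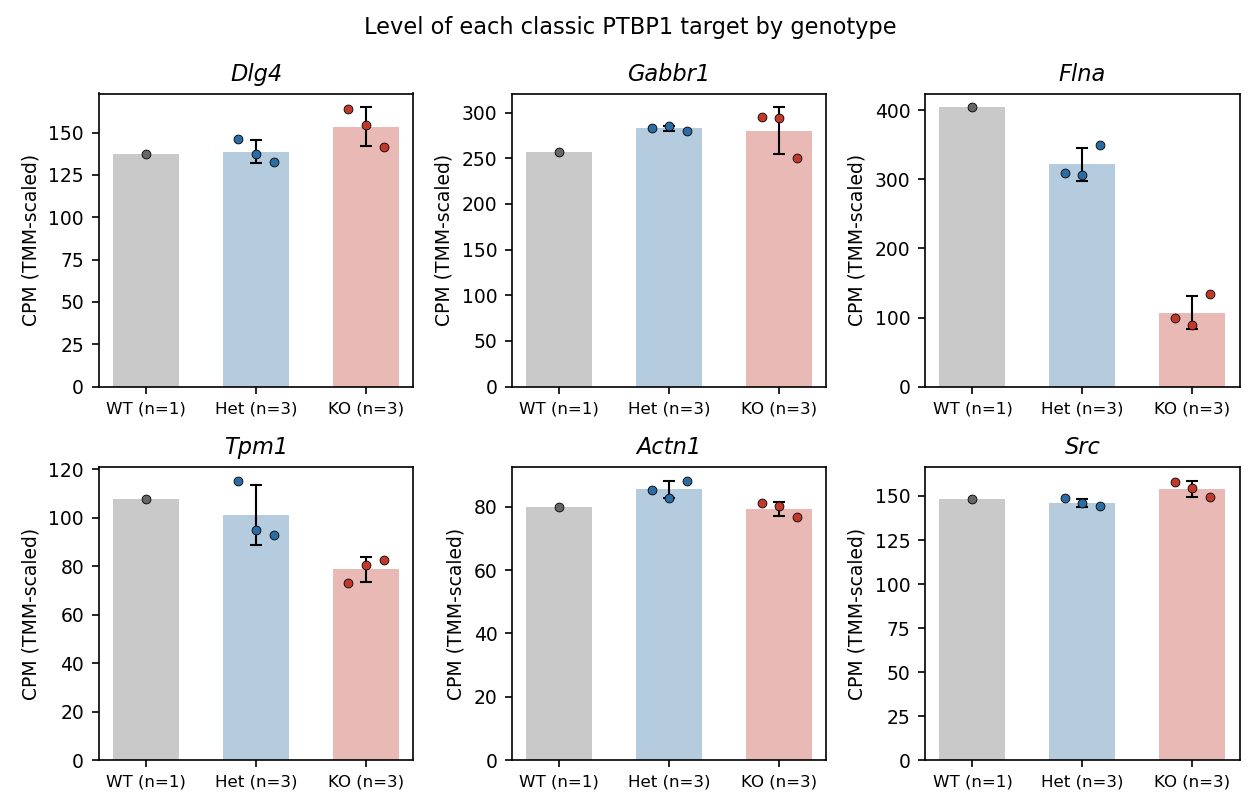
TMM-scaled CPM of the 6 classic PTBP1 targets in the 7 libraries: points are libraries, bars are group means, error bars are the SD over 3 libraries, and WT is a single library. *Flna* lies between 88.5 and 134 CPM in KO and between 307 and 349 CPM in Het, and the other 5 genes stay within a narrower range.

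*Tpm1* encodes a tropomyosin, the coiled coil that winds along actin filaments, and is the standard example of a gene with mutually exclusive exons. It lies on the minus strand of chr9:67022590-67049406, with 21 annotated transcripts. WT held 108 CPM of it, Het1, Het2 and Het3 held 115, 95.1 and 92.8 CPM, and KO1, KO2 and KO3 held 72.9, 80.6 and 82.7 CPM. All 3 KO libraries lay below all 3 Het libraries and below WT, and Het1 was the highest of the 7. The log2 fold change was -0.36 (SE 0.09, 95% interval -0.58 to -0.14), and the gene missed the call at an edgeR adjusted p of 0.0526. It was called by DESeq2 (adjusted p = 0.000245, with 11.6% of all genes called) and by edgeR without the count filter or with at least 10 counts in every library (adjusted p = 0.0462 and 0.0458). Without Het1 the log2 fold change was -0.26 (edgeR adjusted p = 0.0576), and over the 12 other fits the adjusted p ran from 0.000245 to 0.127. The part of the muscle and mesenchyme transcripts of Het1 in the *Tpm1* level was not tested.

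The other 3 tropomyosin genes were called by neither edgeR nor DESeq2, and none had an unadjusted p below 0.05. *Tpm2*, the muscle-rich paralog, was at 37.5 CPM in Het1 and at 6.13 to 7.70 CPM in the other 6 libraries. *Tpm3* ranged from 219 to 341 CPM in Het and from 234 to 280 CPM in KO, so that the groups overlapped. *Tpm4* was at 222 to 230 CPM in Het and at 230 to 239 CPM in KO (log2 fold change 0.06, edgeR adjusted p = 0.219).

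*Actn1* encodes alpha-actinin 1, which crosslinks actin filaments at focal adhesions and stress fibers, and lies on the minus strand of chr12:80167547-80260371. It was at 80.0 CPM in WT, at 85.3, 82.9 and 88.1 CPM in Het1 to Het3 and at 81.1, 80.1 and 76.8 CPM in KO1 to KO3. The KO libraries lay just below the Het libraries and on both sides of WT. The log2 fold change was -0.11 (SE 0.035, 95% interval -0.19 to -0.02, edgeR adjusted p = 0.101), so a change beyond 20% lies outside the interval. *Actn4*, the other nonmuscle alpha-actinin, was at 177 ± 5.64 CPM in Het and 150.4 ± 2.37 CPM in KO (SD, n = 3 each). Its log2 fold change of -0.23 had an edgeR adjusted p of 0.0120 and stayed under the fold limit. *Actn2*, of the muscle Z-disc, was at 18.2 CPM in Het1 and at 0.344 to 0.683 CPM in the other 6 libraries.

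*Dlg4* encodes PSD-95, the scaffold of excitatory synapses, and *Gabbr1* encodes the subunit of the GABA-B receptor that binds the transmitter. *Dlg4* was at 137 CPM in WT, at 146, 137 and 133 CPM in Het1, Het2 and Het3 and at 164, 155 and 141 CPM in KO1, KO2 and KO3. The groups overlapped, since KO3 lay below Het1, and the log2 fold change was 0.15 (SE 0.06, 95% interval -0.0033 to 0.29, edgeR adjusted p = 0.176). *Gabbr1* was at 257 CPM in WT, at 283, 285 and 280 CPM in Het1, Het2 and Het3 and at 295, 295 and 251 CPM in KO1, KO2 and KO3. KO1 and KO2 were above all Het libraries and KO3 was below them, near WT. Its log2 fold change was -0.01 (95% interval -0.17 to 0.14, edgeR adjusted p = 0.911).

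Among the relatives of these neuronal genes, *Dlg2*, which encodes the related scaffold PSD-93, was higher in KO. It was at 76.6 CPM in WT, at 90.6, 82.0 and 76.0 CPM in Het1, Het2 and Het3 and at 123, 121 and 119 CPM in KO1, KO2 and KO3. The KO libraries were close together and all above the Het libraries (log2 fold change 0.54, SE 0.06, edgeR adjusted p = 0.00698). *Gabbr2*, the second subunit of the receptor, was at 56.7 to 62.6 CPM in Het and at 65.3 to 78.7 CPM in KO and missed the call in edgeR but not in DESeq2 (log2 fold change 0.30, edgeR adjusted p = 0.0519). *Dlg1* and *Dlg3* were not called, with log2 fold changes of -0.13 and 0.01. Of the 10 postmitotic neuron markers, 1 was called as higher and 3 as lower in KO, beside 7.22% of all genes tested, and none was at 0 in all libraries. The list, led by *Tubb3*, summed to 4984 CPM in WT, to 5037, 5156 and 4932 CPM in Het1, Het2 and Het3 and to 4574, 4829 and 4275 CPM in KO1, KO2 and KO3. All 3 KO sums lay below the Het sums, while without *Tubb3* the groups overlapped, at 3229 to 3408 CPM in Het and 3034 to 3381 CPM in KO. The part of these neuronal transcripts in the levels of *Dlg4*, *Gabbr1*, *Dlg2* and *Gabbr2* was not tested.

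*Src* encodes a tyrosine kinase whose neuronal form carries a short extra exon in the SH3 domain, and lies on the plus strand of chr2:157418444-157471862. It was at 148 CPM in WT, at 149, 146 and 144 CPM in Het1, Het2 and Het3 and at 158, 155 and 149 CPM in KO1, KO2 and KO3. The KO libraries were above the Het libraries by a small margin, with KO3 next to Het1 (log2 fold change 0.07, SE 0.032, 95% interval -0.0031 to 0.15, edgeR adjusted p = 0.182). Of the 7 other Src family kinases 6 were tested and none was called by edgeR or DESeq2, while 2, *Fyn* and *Lck*, had an unadjusted p below 0.05 in edgeR. *Fyn* was at 201 to 206 CPM in Het and 180 to 191 CPM in KO.

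**Figure D2:**
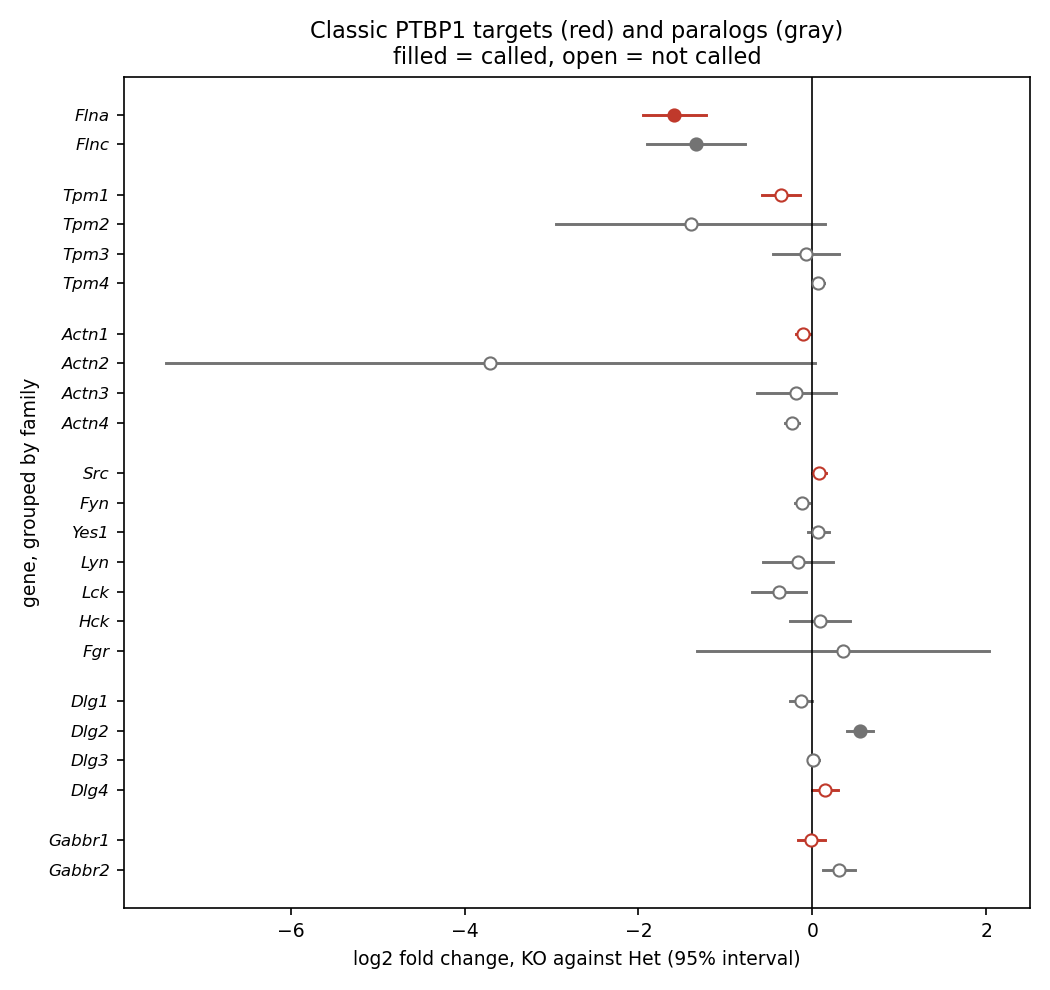
The log2 fold change of KO against Het with its 95% interval for the classic targets (red) and tested paralogs (gray), grouped by family. Called genes are filled, and not all tested paralogs are shown. *Flna* and *Flnc* lie at -1.59 and -1.34, and the wide intervals of *Tpm2* and *Actn2* go with their high values in Het1.

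Per kilobase of annotated exon, the order of the Het means was *Gabbr1* at 36.4 ± 0.311 CPM per kb, *Flna* at 34.2 ± 2.56, *Src* at 33.5 ± 0.518, *Tpm1* at 15.6 ± 1.90, *Actn1* at 15.4 ± 0.473 and *Dlg4* at 10.5 ± 0.504 (SD, n = 3). By this length *Flna* did not differ from either neighbour beyond its spread, nor did *Tpm1* from *Actn1*. In KO the means were 36.1 ± 3.28 CPM per kb for *Gabbr1*, 35.2 ± 1.04 for *Src*, 14.3 ± 0.409 for *Actn1*, 12.1 ± 0.794 for *Tpm1*, 11.6 ± 0.863 for *Dlg4* and 11.4 ± 2.53 for *Flna*. WT held 43.0 CPM per kb of *Flna*, which had the lowest mean of the 6 in KO, within its spread of *Dlg4* and *Tpm1*. These distances depend on the length used: per kilobase of the longest protein-coding transcript, *Flna* in KO was at 12.7 ± 2.81 CPM per kb, below *Dlg4* at 24.3 ± 1.81 and *Tpm1* at 27.2 ± 1.78 (SD, n = 3). By that length *Gabbr1* in Het, at 53.9 ± 0.461 CPM per kb, was above *Flna* at 38.0 ± 2.84, and *Tpm1* at 34.9 ± 4.27 was above *Actn1* at 22.9 ± 0.701, each beyond the spread.

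The other textbook targets of PTBP1 were written as 2 lists, 8 genes tied to decay and 12 genes that switch isoform. All 20 were tested and 5 were called, 2 higher and 3 lower in KO, with a median log2 fold change of 0.15. One of the lower genes is *Ptbp1* itself, and of the other 19 genes 4 were called, 2 in each direction, beside 7.22% of all genes tested. *Ptbp2*, the neuronal paralog whose mRNA PTBP1 keeps low through a skipped exon, was at 338 CPM in WT, at 428, 455 and 430 CPM in Het1, Het2 and Het3 and at 529, 550 and 538 CPM in KO1, KO2 and KO3. The 3 genotypes did not overlap, with the rise from Het to KO at 0.30 on the log2 scale (SE 0.037, edgeR adjusted p = 0.00831). *Cltb*, a clathrin light chain, was higher in KO (log2 fold change 0.37), while *Hps1*, of lysosome-related organelles, and *Calca*, the calcitonin gene, were lower (-0.61 and -0.88), *Calca* at under 1 CPM in every library. Of the 12 other fits, 9 called *Cltb*, 7 called *Hps1* and 3 called *Calca*. Of *Vamp2*, *Sv2a* and *Kif5a*, synaptic and transport genes of the decay list, none was called by edgeR or DESeq2, with log2 fold changes of 0.26, 0.22 and 0.16 in edgeR, where 2, *Vamp2* and *Kif5a*, had an unadjusted p below 0.05. *Vamp2* passed the fold limit in edgeR and narrowly missed the call (edgeR adjusted p = 0.0510). In DESeq2 *Vamp2* and *Kif5a* stayed under the fold limit (DESeq2 adjusted p = 0.00139 and 0.0256). The count of 5 was 3 without Het1, 1 without Het2 or Het3, 2 without KO1 or KO2 and 8 without KO3. *Ptbp1* itself was not called without Het1, Het2, Het3 or KO1, where its log2 fold change was -3.07 to -2.99 and its edgeR adjusted p 0.0519 to 0.0964.

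The genes most like each target were sought by Pearson correlation of log2(CPM + 1) over the 7 libraries, among 11320 genes with a mean of at least 5 CPM, as a description of libraries that share their genotype groups. For *Flna* these were *Nucb2*, *Chpf2* and *Sdcbp* (r = 0.997, 0.995 and 0.995). Their log2 fold changes, -0.23, -0.34 and -0.22, were smaller than that of *Flna*. Of the 3, 1 was called, *Chpf2*, beside 7.22% of all genes tested. Since the 3 were chosen for following *Flna* over the same libraries, this call carries no further information. For *Tpm1* the nearest was *Cdr2* (r = 0.996), for *Actn1* *Abhd4* (r = 0.983), for *Gabbr1* *Pde12* (r = 0.979), for *Dlg4* *Osbp2* (r = 0.998) and for *Src* *Gpr26* (r = 0.990). *Osbp2* and *Gpr26* had their highest values in KO1, like *Dlg4* and *Src*, and neither was called.

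Alternative exons annotated in these genes are shown because a count per gene cannot separate their use. They were chosen from the annotation, and whether they are the exons that PTBP1 regulates was not tested. In the annotation, an exon of *Dlg4* (chr11:70043658-70043767, plus strand) and one of *Gabbr1* (chr17:37067214-37067364, plus strand) are skipped only in a transcript marked for nonsense-mediated decay, 1 in each gene. They measure 110 and 151 nt, neither a multiple of 3, so skipping shifts the reading frame. In the *Dlg4* transcript the stop codon lies 80 nt before the last exon junction, while in the *Gabbr1* transcript the annotated stop codon already precedes the skipped exon. The exon is in capitals, between 12 bases of each neighbouring exon.
Dlg4: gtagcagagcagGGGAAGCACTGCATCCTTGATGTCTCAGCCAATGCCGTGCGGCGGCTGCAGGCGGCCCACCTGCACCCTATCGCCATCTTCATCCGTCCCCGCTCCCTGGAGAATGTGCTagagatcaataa
Gabbr1: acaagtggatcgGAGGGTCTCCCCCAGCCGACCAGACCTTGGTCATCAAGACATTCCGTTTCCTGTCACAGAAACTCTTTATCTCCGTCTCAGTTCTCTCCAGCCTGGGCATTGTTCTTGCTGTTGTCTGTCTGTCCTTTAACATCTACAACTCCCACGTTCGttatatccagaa

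*Src* has an 18-nt exon (chr2:157458843-157458860, plus strand), held by 2 transcripts and skipped by 3, and *Flna* a 24-nt exon (chrX:74232967-74232990, minus strand), held by 2 and skipped by 4. Both lengths are multiples of 3, so these exons add residues and keep the frame. The longer of the 2 decay transcripts of *Flna* also holds the 24-nt exon, and its stop codon lies upstream of that exon, 6182 nt before the last exon junction. No *Flna* exon met the rule of being skipped only in decay transcripts. The exon is again in capitals between 12 bases of each neighbour, on the coding strand.
Src: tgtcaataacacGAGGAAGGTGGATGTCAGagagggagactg
Flna: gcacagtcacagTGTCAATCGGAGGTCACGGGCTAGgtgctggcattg

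*Tpm1* exons of 126 nt at chr9:67047786-67047911 and chr9:67048124-67048249 (minus strand) follow the same 12 bases and are not printed. The pair of *Tpm1* exons that met the rule given below for pairs (chr9:67032466-67032541 and chr9:67031951-67032026, minus strand) has 76 nt in each exon, with 43 identical positions. Capitals mark the 33 positions at which they differ, and the exon nearer the 5′ end is given first. A count per gene adds up both forms.
Tpm1 first exon: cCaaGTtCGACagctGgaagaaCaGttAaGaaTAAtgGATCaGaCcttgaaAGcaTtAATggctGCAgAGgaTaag
Tpm1 second exon: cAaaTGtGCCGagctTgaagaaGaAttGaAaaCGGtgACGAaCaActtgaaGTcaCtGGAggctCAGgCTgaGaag

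The matching pair of *Actn1* (chr12:80170686-80170766 and chr12:80170183-80170248, minus strand) has 81 and 66 nt and lies in the region of the calcium-binding EF hands. Each is in capitals between the same 12 bases on either side, which shows that the exons take the same place in the mRNA.
Actn1 first exon: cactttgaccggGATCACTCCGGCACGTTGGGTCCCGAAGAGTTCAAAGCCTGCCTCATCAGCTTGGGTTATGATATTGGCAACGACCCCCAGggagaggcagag
Actn1 second exon: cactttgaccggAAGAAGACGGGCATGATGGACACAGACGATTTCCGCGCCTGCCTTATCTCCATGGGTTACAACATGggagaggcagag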

How the data were processed

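Bulk RNA-seq counts of 7 libraries were used. Per the submitters' processing notes and the methods, the authors aligned reads to mm10 (GRCm38) with STAR and assigned them to genes using featureCounts. The deposited values are these raw counts, not normalized. How the counting treated strand and reads that map to several places is not given in the sources used here, so genes with close copies or antisense partners are uncertain. Total counts were 120593979 to 171117305 per library. No 2 replicates were copies, their counts differing by 14.0 to 53.2 times the counting variance. Whether pools shared litters is not given in the sources used here, so p-values measure the spread between these pools.

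KO was compared with Het using edgeR 4.0.16 under R 4.3.3 (filterByExpr on genotype, TMM, glmQLFit and glmQLFTest, a mean per genotype over all 7 libraries, 4 residual degrees of freedom), with Benjamini-Hochberg adjustment over 20019 genes. The standard error is the size of the log2 fold change over the square root of F. An exact permutation test of 1 gene, 3 against 3, cannot go below a p of 0.1. DESeq2 1.42.0 was an alternative, and both scripts were tested on simulated data. Levels per kb use the union of annotated exons. Named genes are the 6 targets, the tested genes of the target lists and families, the 3 nearest genes of each target and the most abundant gene of a marker list. The members and lists were chosen with earlier results of these data known. Results for some genes of these lists are not reported here. Marker sums without the most abundant gene were chosen after seeing the data. Of the lens markers, led by *Cryaa*, 1 of 9 tested genes was called, as lower in KO, beside 7.22% of all genes tested, and the list summed to 16.1 CPM in WT, 26.3 to 83.1 CPM in Het and 3.28 to 55.4 CPM in KO, with 1 marker, *Lim2*, at 0 in all libraries. Exons and sequences come from GENCODE M21 (GRCm38), matched by gene identifier without its version. The exons were first picked by eye from the annotation, and the rule was written afterwards: an exon had to be wholly coding and skipped only in decay transcripts, or held and skipped by at least 2 transcripts each, or 1 of a pair joined to the same splice sites. *Tpm1* has 2 further exons of the first kind and 3 of the second, which are not printed.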

Additional observations from a re-analysis of the deposited data

How the results depend on the processing

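Of 13 other settings, the number of genes called between Het and KO moved by more than 1.5 times when the fold limit was dropped (2221) and without Het2, Het3 or KO2 (386, 496 and 612), and it was 1226 to 1674 without 1 of the other 3 libraries. The number of classic targets called was 2 with DESeq2, without a count filter and with at least 10 counts in every library, through *Tpm1*, whose log2 fold change was then -0.36 each time. It was 1 under the other 10 settings. The count over the other PTBP1 targets ran from 1 to 8 when a library was left out. *Gabbr1* changed sign without KO3 (log2 fold changes from -0.052 to 0.064 over the libraries left out). *Dlg4*, *Actn1* and *Src* kept their direction and were called under none of the 12 other fits. On the longest protein-coding transcript in place of the exon union, Het levels per kb were 53.9 for *Gabbr1*, 38.0 for *Flna*, 37.4 for *Src*, 34.9 for *Tpm1*, 22.9 for *Actn1* and 21.9 for *Dlg4*, in the same order as by the exon union, though the distances between genes changed. All 18 nearest genes were the same with a pseudocount of 0.1. Of 18 paralogs tested in the main fit 3 were called, beside 7.22% of all genes tested. Their counts under the other settings, 2 to 4, were recomputed by settings chosen after seeing the data. The number called over all genes moved with the setting too. It was 1332 of 29515 without a count filter and 1552 of 16985 with at least 10 counts in every library. Without Het2 it was 386 of 20015 and without KO3 1674 of 19944, while DESeq2 called 11.6%.

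With the replicate number as a replicate block, on the 6 Het and KO libraries, 1268 genes and 1 classic target were called, and *Flna* had a log2 fold change of -1.61 and *Tpm1* of -0.35. Libraries of the same number did not deviate together in every case (r = -0.12, 0.256 and 0.0188 for numbers 1, 2 and 3). Het2 correlated best with the KO library of its own number, whereas Het1 did so with KO3 (r = 0.213). Het3 had no clear partner, with r = 0.0188 for KO3 and 0.0185 for KO2. The numbers therefore do not pair the libraries throughout.

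With 3 libraries a group and 1 WT library, small changes such as those of *Src* and *Dlg4* are not separated from the spread, WT against Het was not tested, and gene-level counts do not show exon use. Depth is not the limit for the 6 targets, which had at least 9660 counts in every library.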
